A study of Mus musculus with 3 samples.

Results

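The proteasome genes of mouse preosteoblasts were examined, that is, every listed gene whose symbol begins with Psma to Psmg and ends in a number with or without a letter. Of 15287 genes with a level in the deposited table, 47 met this rule, and all 47 reached at least 1 FPKM (fragments per length of transcript and per depth of the library) in at least 1 library. They comprised 7 α ring genes, 4 structural and 3 catalytic genes of the constitutive β ring, 3 immunoproteasome genes, 6 ATPases and 11 other subunits of the 19S cap, 3 chaperones of the cap, 5 activator genes, 1 inhibitor and 4 chaperones of the core. Psma8 and Psmb11, the α and β subunits known from testis and thymus, were not listed.

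The RNA came from MC3T3-E1, a wild-type preosteoblast line from mouse calvaria. CTL cells received no particles, Ti cells were exposed to titanium particles at 10 μg/cm² for 24 h, and Ti+Se-Met cells received the same particles together with 5 μM selenomethionine for 24 h. Where 3 levels follow a gene without labels, they are FPKM in the order CTL, Ti and Ti+Se-Met. No library of cells given Se-Met without particles was analysed here. Each condition was represented by 1 library, so that the differences had no replicate error, no test was made, and a 95% interval, where given, covers counting error only and compares libraries, not conditions.

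The 26S proteasome degrades proteins that carry ubiquitin chains. Its 20S core is a barrel of stacked α and β rings, and the proteolytic sites lie inside on the subunits β1 (Psmb6), β2 (Psmb7) and β5 (Psmb5). The 19S cap recognises the chain, removes it and threads the substrate into the barrel with a ring of ATPases. Interferon-γ is known to induce Psmb9, Psmb10 and Psmb8, which take the places of β1, β2 and β5 in new barrels and form the immunoproteasome, and to induce PA28αβ (Psme1 and Psme2), a cap that needs no ATP. Both are known for producing peptides for MHC class I. In many cells the constitutive genes are induced together by NRF1 (Nfe2l1) when proteasome activity is short, through antioxidant response elements.

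For the genes on which the comparison turned, the promoter sequence is shown from 100 bases before to 20 bases after the RefSeq start (assembly GRCm38.p6, written 5′ to 3′ on the strand of the gene). Capitals mark the letters searched for, namely TGACNNNGC (the antioxidant response element core), CCAAT and the core of the interferon-stimulated response element (a pair of GAAA blocks spaced by any pair of bases), each on both strands. Psmb5 and Psmb6 are shown as constitutive catalytic genes, Psmb8 and Psmb9 as the immunoproteasome genes at the same places, Psme1 and Psme2 as PA28α and PA28β, and Psmd13 as the member with the largest difference between Ti and CTL.
Psmb5, chr14:54617976-54618095, minus strand: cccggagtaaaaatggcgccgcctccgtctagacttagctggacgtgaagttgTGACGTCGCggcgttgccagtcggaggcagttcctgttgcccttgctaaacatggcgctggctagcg
Psmb6, chr11:70525257-70525376, plus strand: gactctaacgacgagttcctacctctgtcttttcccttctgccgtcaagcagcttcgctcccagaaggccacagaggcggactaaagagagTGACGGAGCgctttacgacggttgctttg
Psmb8, chr17:34198095-34198214, plus strand: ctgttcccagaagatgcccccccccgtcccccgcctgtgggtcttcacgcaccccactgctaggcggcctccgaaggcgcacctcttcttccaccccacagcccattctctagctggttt
Psmb9, chr17:34187311-34187430, minus strand: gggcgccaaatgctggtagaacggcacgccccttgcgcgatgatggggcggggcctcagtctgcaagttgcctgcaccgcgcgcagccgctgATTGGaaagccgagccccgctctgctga
Psme1, chr14:55578394-55578513, plus strand: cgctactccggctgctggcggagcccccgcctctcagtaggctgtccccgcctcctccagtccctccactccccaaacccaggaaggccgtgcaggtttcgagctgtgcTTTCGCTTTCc
Psme2, chr14:55591082-55591201, minus strand: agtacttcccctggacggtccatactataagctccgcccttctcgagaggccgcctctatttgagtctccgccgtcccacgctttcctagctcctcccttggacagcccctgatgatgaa
Psmd13, chr7:140882294-140882413, plus strand: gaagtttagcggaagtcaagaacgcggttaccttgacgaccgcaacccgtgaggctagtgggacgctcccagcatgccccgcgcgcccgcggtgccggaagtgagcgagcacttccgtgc
The capitals in Psmb5 and Psmb6 are the letters of the antioxidant response element core, those in Psmb9 are CCAAT on the opposite strand, and those in Psme1 are the interferon-stimulated core on the opposite strand. None of the 3 motifs was found in the windows of Psmb8, Psme2 and Psmd13, nor in that of a further RefSeq start of Psme2 and those of Psmb10 and Psmg3, which are not shown. The Psmb10 window looks like repeat sequence and may belong to an alternative start, so its lack of motifs is uncertain.

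In the wider windows of 300 bases, 40 of the 47 genes had a RefSeq promoter, 43 promoters in all. The antioxidant response element core stood in 6 of the 43 (14.0%) and in 12.4% of all 32851 promoters. These were the promoters of Psmb5, Psmb6, Psmc6, Psmd9, Psmd12 and Psme4. CCAAT stood in 13 of 43 (30.2%), against 37.4% of all promoters. The interferon-stimulated core stood in 5 of 43 (11.6%), against 3.44% of all, and these were Psmb3, Psmd4, Psmd9, Psme1 and Psmg4. A match of letters is a description of the window and shows no binding.

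The deposited levels gave no counts, but the steps between low values placed the libraries at about 15300000 (CTL), 15000000 (Ti) and 10700000 (Ti+Se-Met) fragments. These depths are estimates. Of the low values used, 69.0%, 68.5% and 70.9% lay on the steps, where chance gives 30% at a depth fixed beforehand. The depths and the bases subtracted were chosen to raise this share, so chance would give more than 30% here. Shares nearly as high were reached from 13050000 to 15350000 fragments (CTL), 13650000 to 15800000 (Ti) and 10700000 to 10750000 (Ti+Se-Met). Of the preosteoblast markers, the collagen genes were high (Col1a1 at 1333.19 FPKM in the CTL library, 354.20 with Ti and 481.63 with Ti+Se-Met). Sparc stood at 649.22, 461.86 and 507.94, and Runx2 at 26.77, 17.14 and 22.97. The others on that list were low, with Alpl at 1.51, 0.20 and 0.20, and Bglap, Ibsp and Sp7 at 0.80 FPKM or less in every library. Of the leukocyte markers, which bear on the immunoproteasome since leukocytes are rich in it, Cd68 and Csf1r reached 0.42 and 0.10 FPKM at most, Cd14 stood at 5.70, 16.56 and 14.81 and Lyz2 at 26.72, 14.76 and 12.42, and Ptprc, Adgre1, Itgam and Tyrobp were not listed. Their part in the immunoproteasome values was not tested. Among endothelial markers, Pecam1 and Tek reached 0.24 and 0.02 FPKM at most. In bulk RNA, fewer cells of a type and less RNA per cell cannot be told apart.

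In untreated cells the constitutive proteasome was expressed at a high level. The 31 constitutive subunits lay between 43.93 FPKM (Psmd13) and 192.74 FPKM (Psmb4), a 4.39-fold range. Their median was 69.61, while the median gene that passed the filter had a mean of 14.35 FPKM over the libraries. The 7 α ring genes, whose products enter the core in equal number, spanned a 1.58-fold range, from 68.84 (Psma1) to 108.46 FPKM (Psma6). The 4 structural β genes spanned a 2.81-fold range, from 68.55 (Psmb2) to 192.74 FPKM (Psmb4). The chaperones of the core were lower, at 12.44 to 19.49 FPKM, and so were the immunoproteasome genes, at 3.13 (Psmb8), 15.91 (Psmb9) and 25.45 FPKM (Psmb10). PA28αβ did not share that low level, since Psme2 stood at 167.52 and Psme1 at 102.53 FPKM. The rarest member was Psme2b, a near-identical copy of Psme2, at 1.76 FPKM.

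**Figure D1:**
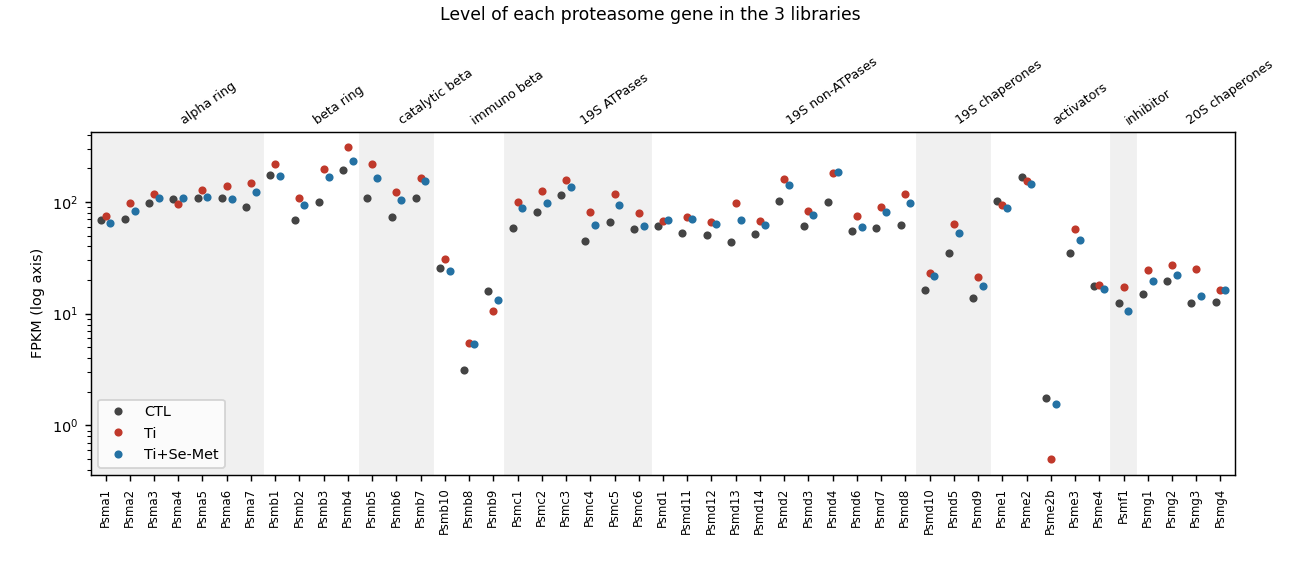
Level of each of the 47 proteasome genes in FPKM (log axis) in the CTL, Ti and Ti+Se-Met libraries, 1 point per library, grouped by role. The constitutive core and cap lie between 43.93 and 308.45 FPKM, the immunoproteasome genes at 31.11 FPKM or less, and Psme1 and Psme2 are the only activators above 60 FPKM.

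Titanium particles were compared with no treatment first. Most constitutive subunits were higher in the Ti library, whereas PA28αβ and Psmb9 were lower. The summed level of the 47 genes was 3097.84 (CTL), 4463.94 (Ti) and 3814.05 FPKM (Ti+Se-Met), which is 0.691%, 0.849% and 0.741% of all FPKM in the library. Of the 47 members, 22 were at least 1.5-fold higher in Ti on the log2(FPKM + 1) scale, where 15.5% of the 11137 genes that passed the filter were, and 1 (Psme2b) was at least 1.5-fold lower, where 11.3% of genes were. Among the constitutive subunits, 16 of 31 were past 1.5-fold and 30 of 31 were higher by some amount, where 55.3% of all genes were. On that scale only Psmd13 was more than 2-fold higher, where 3.63% of all genes were.

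The median difference between Ti and CTL was 0.58 for the 31 constitutive subunits on the log2 scale, 0.48 for all members and 0.08 for all genes. With each library scaled to the same sum of FPKM, the median of all genes became -0.13 and that of the constitutive subunits 0.36. Of the 31, 28 stayed higher, where 4486 of the 11137 genes were higher. On that scale 9 members were past 1.5-fold higher, where 7.35% of all genes were, and 2 lower, where 19.2% were. With upper-quartile scaling 11 were higher, where 9.93% of all genes were, and 2 lower, where 15.7% were.

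The catalytic β subunits, which carry the proteolytic sites, were all higher. Psmb5 (β5, the chymotrypsin-like site) was at 108.93 (CTL), 216.90 (Ti) and 164.84 FPKM (Ti+Se-Met). Psmb6 (β1, the caspase-like site) was at 72.49, 123.63 and 104.94 FPKM. Psmb7 (β2, the trypsin-like site) was at 107.70, 162.05 and 153.98 FPKM. The Ti library was the highest and CTL the lowest for each of these genes, and the ratio of Ti to CTL was 1.99 (interval 1.86 to 2.14) for Psmb5, 1.71 (1.55 to 1.88) for Psmb6 and 1.505 (1.41 to 1.603) for Psmb7. On the log2(FPKM + 1) scale Psmb7 stood exactly at the threshold of 1.5-fold.

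Among the structural β subunits, which hold the ring and cut nothing, Psmb3 showed the widest difference, at 99.86 (CTL), 196.95 (Ti) and 166.19 FPKM (Ti+Se-Met). Psmb4, the most abundant member, was at 192.74, 308.45 and 231.69 FPKM, and Psmb2 at 68.55, 109.24 and 92.96 FPKM. Psmb1 was at 174.04, 217.63 and 168.75 FPKM, so that the Ti+Se-Met library was not above CTL for this gene. Log2 differences between Ti and CTL ran from 0.32 (Psmb1) to 0.97 (Psmb3).

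The α ring, which gates the barrel, differed less than the β ring. Its median log2 difference was 0.27, against 0.67 for the structural and 0.76 for the catalytic β subunits. Psma7 was the highest by ratio, at 90.24 (CTL), 146.68 (Ti) and 122.15 FPKM (Ti+Se-Met), a ratio of Ti to CTL of 1.63. Psma4 was the only constitutive subunit that was lower in Ti on the deposited scale, where equal sums left 3 lower, at 106.44, 96.37 and 107.50 FPKM, with a ratio of 0.905 (0.843 to 0.973). Psma1 was at 68.84, 74.78 and 64.94 FPKM, with an interval of the ratio that included 1 (0.999 to 1.18). The other 4 α genes had ratios from 1.19 (Psma5) to 1.40 (Psma2).

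All 17 genes of the 19S cap were higher in Ti on the deposited scale. Each had an interval above 1, where 43.0% of all genes had one. That share is not matched for level, and counting intervals are narrower at high levels. The constitutive subunits had a median of 92.89 FPKM over the libraries, against 14.35 for all genes. With equal sums 16 of the 17 were higher, where 4486 of the 11137 genes were. Among the 6 ATPases, the motor of the cap, Psmc4 had the highest ratio at 1.82, from 45.06 FPKM in CTL to 81.90 in Ti (62.52 with Se-Met). Psmc3 had the lowest at 1.36, with 115.30, 157.18 and 135.64 FPKM. Psmc5 was at 66.17, 118.35 and 94.14 FPKM, Psmc1 at 58.13, 99.99 and 88.64, and Psmc2 at 81.97, 124.72 and 97.79. The median log2 difference of the ATPases was 0.69.

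Among the 11 non-ATPase subunits, Psmd13 (Rpn9) was the member with the largest ratio, at 43.93 (CTL), 97.02 (Ti) and 68.52 FPKM (Ti+Se-Met), which is 2.21-fold (2.06 to 2.37) from CTL to Ti. Psmd8 (Rpn12) was at 61.59, 116.90 and 96.79 FPKM. Psmd4 (Rpn10, a ubiquitin receptor) was at 98.75, 181.85 and 183.19 FPKM. Psmd2 (Rpn1) was at 101.01, 161.16 and 141.64 FPKM, and Psmd7 (Rpn8) at 58.42, 90.77 and 81.75. Psmd1 (Rpn2, a large scaffold) had the lowest ratio, 1.10 (1.05 to 1.16), at 61.06, 67.23 and 69.28 FPKM. Psmd14, the deubiquitinase of the cap, lay at 52.10, 67.16 and 61.78 FPKM. The subunits of this single particle therefore covered ratios from 1.10 to 2.21, with a median log2 difference of 0.45.

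**Figure D2:**
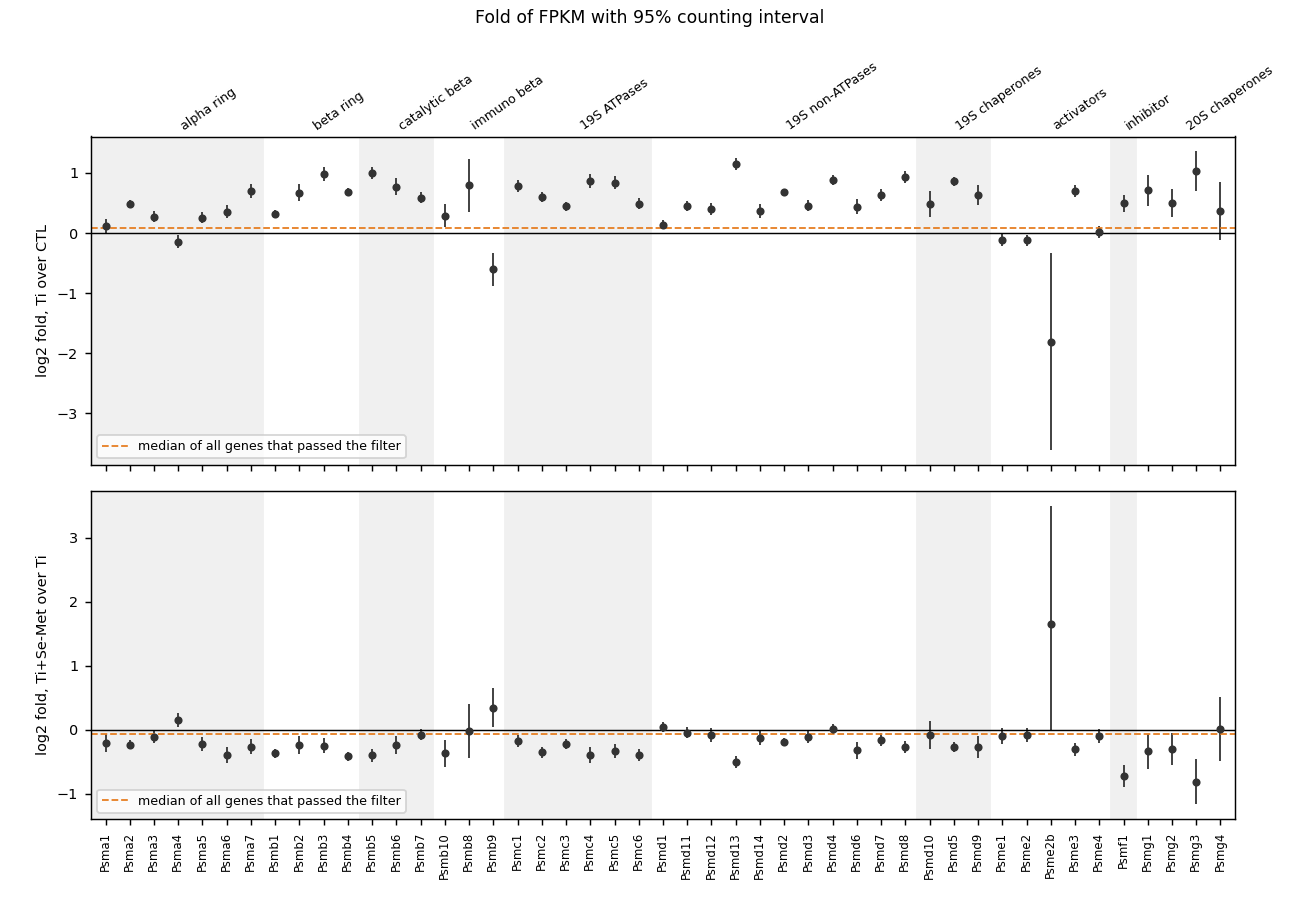
Ratio of levels for each proteasome gene, Ti to CTL as well as Ti+Se-Met to Ti (log2 axis). Genes are grouped by role and drawn with 95% intervals of counting error. For Ti against CTL 29 of the 31 constitutive subunits have intervals above 1 and 1 below 1, while Psme1, Psme2, Psme2b and Psmb9 lie below 1. Of all genes 43.0% have intervals above 1 and 32.2% below 1. These shares are not matched for level, and counting intervals are narrower at high levels.

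Transcript length and base composition moved with the difference between Ti and CTL over all genes. Over 10919 genes, Spearman's rho of the log2 difference was -0.33 with transcript length and 0.32 with GC content, and the proteasome transcripts are short, with a median of 1410 bases against 2928 for all genes. All 827 genes with transcripts under 2000 bases and a mean of at least 50 FPKM had a median of 0.44, and the 25 constitutive subunits in that class had 0.63. Within the 31 constitutive subunits rho with GC content was 0.71, and within the 7 genes of the constitutive β ring it was 0.96. It was 0.14 within the 7 α ring genes, 0.14 within the 6 ATPases of the cap and 0.36 over all 47 members. The α ring transcripts had a median GC content of 44.98% and those of the constitutive β ring 52.2%. These correlations are across genes within the same libraries, and genes are not independent replicates.

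After the fit on length and GC content was subtracted, the median of the constitutive subunits was 0.36 and 30 of 31 were above 0, where 52.6% of all genes were. The medians were 0.44 for the 19S cap, 0.31 for the 20S core, 0.15 for the α ring, 0.33 for the structural and 0.34 for the catalytic β subunits, so that the α and β rings lay closer together than on the deposited scale. Psmb10 and Psmg4 turned lower in Ti after the fit, at -0.09 and -0.18 on the log2 scale. On this scale 5 members, or 10.6%, were past 1.5-fold higher, where 9.99% of all genes were, so the share of members past that threshold was near that of all genes. The part of length and GC content in the raw difference was not tested further.

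**Figure D3:**
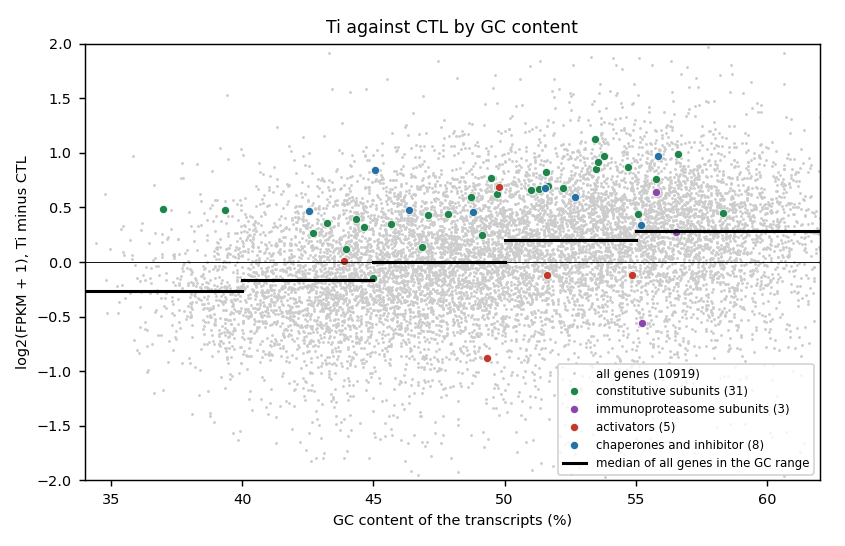
Difference in log2(FPKM + 1) between Ti and CTL against the GC content of the transcripts (%), with 1 point per gene, all genes in grey, the proteasome genes in colour by role, and black lines for the median of all genes in each GC range (genes beyond the axes are not drawn). The medians of all genes run from -0.26 under 40% GC to 0.28 at 55% and above, and all but 1 of the constitutive subunits lie above 0.

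**Figure D4:**
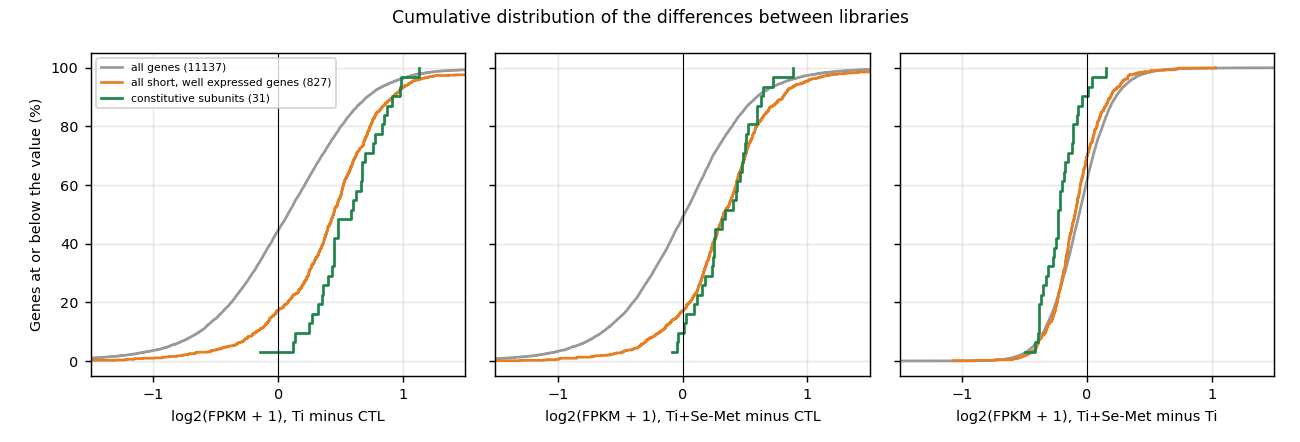
Cumulative distribution of the difference in log2(FPKM + 1) for the 3 comparisons. Curves are drawn for all 11137 genes that passed the filter, for 827 short, well expressed genes and for the 31 constitutive subunits. The 827 genes have transcripts under 2000 bases and a mean of at least 50 FPKM. In that order, the medians are 0.08, 0.44 and 0.58 in Ti against CTL. In Ti+Se-Met they are 0.01, 0.33 and 0.34 against CTL, and -0.06, -0.09 and -0.23 against Ti.

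The immunoproteasome genes did not follow the constitutive catalytic genes as a set. Psmb9 was at 15.91 (CTL), 10.46 (Ti) and 13.33 FPKM (Ti+Se-Met). Psmb10 was at 25.45, 31.11 and 24.19 FPKM. Psmb8 was at 3.13, 5.43 and 5.37 FPKM, which rests on about 70, 118 and 83 fragments. The Ti library was thus the lowest for Psmb9 and the highest for both other genes, although Psmb8 in Ti and in Ti+Se-Met differed by less than counting error, with ratios of Ti to CTL of 0.657 (0.544 to 0.794) for Psmb9, 1.22 (1.08 to 1.39) for Psmb10 and 1.73 (1.27 to 2.35) for Psmb8. The sources used here do not say that strand was kept in counting, and Psmb9 and Psmb8 are neighbours of Tap1 on chromosome 17, in the order Psmb9, Tap1, Psmb8 and Tap2, so reads of genes that overlap there could not be told apart.

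Taken at the 3 catalytic places, the ratio of the immunoproteasome gene to its constitutive counterpart compares genes within a library and does not depend on how libraries are scaled. At β1, Psmb9 made up 18.0% of the summed level of Psmb9 and Psmb6 in CTL (interval 16.0% to 20.2%), 7.80% after Ti (6.73% to 9.02%) and 11.3% after Ti+Se-Met (9.64% to 13.1%). The ratio Psmb9 to Psmb6 in Ti was 0.385 times that in CTL (0.313 to 0.474), and in Ti+Se-Met it was 1.501 times that in Ti (1.19 to 1.89). None of the 3 intervals of the share overlapped another. At β2 the intervals of Ti (14.8% to 17.4%) and Ti+Se-Met (12.1% to 15.1%) overlapped, and at β5 all 3 did. Each covers the counting error of 1 library only, and how often other pairs of genes lack overlap was not examined.

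At β2, Psmb10 made up 19.1% of its pair with Psmb7 in CTL, 16.1% after Ti and 13.6% after Ti+Se-Met. The ratio in Ti was 0.812 times that in CTL (0.706 to 0.936), and in Ti+Se-Met 0.818 times that in Ti (0.700 to 0.956), so the order of the libraries was not that of β1. At β5, Psmb8 made up 2.79%, 2.44% and 3.15% of its pair with Psmb5, and the ratio in Ti was 0.871 times that in CTL with an interval that included 1 (0.643 to 1.18). The summed level of the 3 immunoproteasome genes was 44.49 (CTL), 47.00 (Ti) and 42.89 FPKM (Ti+Se-Met), and that of the 3 constitutive genes 289.12, 502.58 and 423.76, so that the immunoproteasome genes held 13.3%, 8.55% and 9.19% of the total. The mean log2 difference between Ti and CTL of the immunoproteasome genes minus that of the constitutive catalytic genes was -0.66, and in the comparisons of Ti+Se-Met it was -0.44 against CTL and 0.22 against Ti.

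**Figure D5:**
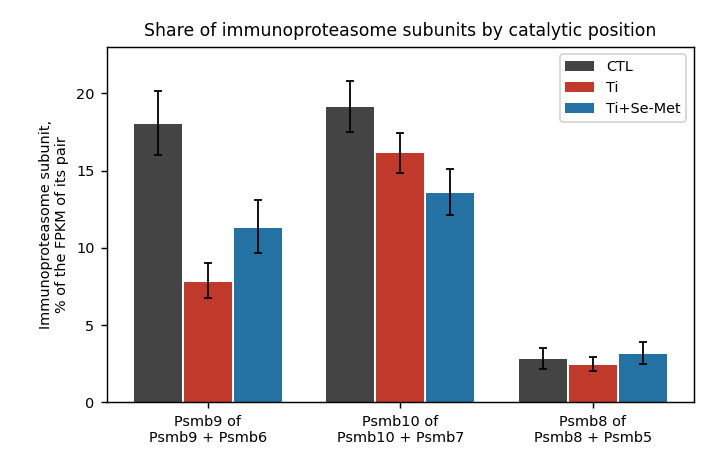
Share of each immunoproteasome gene in the summed FPKM with its constitutive counterpart (%), at β1, β2 and β5 in the CTL, Ti and Ti+Se-Met libraries, with 95% intervals of counting error. The β1 share is 18.0% in CTL, 7.80% after Ti and 11.3% after Ti+Se-Met, and the β5 share stays at 3.15% or less.

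The activators split by kind. PA28αβ, the interferon-inducible cap, was slightly lower in both treated libraries, with Psme1 at 102.53 (CTL), 94.68 (Ti) and 88.25 FPKM (Ti+Se-Met) and Psme2 at 167.52, 153.77 and 145.84. The ratio of Ti to CTL was 0.923 (0.857 to 0.995) for Psme1 and 0.918 (0.858 to 0.982) for Psme2, and the ratio of Psme1 to Psme2, whose products build the same ring, was 0.612, 0.616 and 0.605 in the 3 libraries. Psme3 (PA28γ), the nuclear activator that interferon does not induce, was at 34.89, 56.62 and 45.98 FPKM, 1.62-fold higher in Ti (1.51 to 1.74).

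Within a library, Psme1 was thus 2.94 times Psme3 in CTL, 1.67 times in Ti and 1.92 times in Ti+Se-Met. Psme4 (PA200), an activator of the nucleus known from histone degradation in testis and from DNA repair, was at 17.84, 17.98 and 16.79 FPKM, with a ratio of Ti to CTL of 1.008 (0.942 to 1.08) that was below 1 under each other scaling run. Psme2b was at 1.76, 0.50 and 1.57 FPKM, about 18, 5 and 11 fragments, and as it is nearly identical to Psme2 its reads may be split between them, so its value is uncertain. Psmf1 (PI31), which inhibits the core in vitro, was at 12.42, 17.50 and 10.64 FPKM, highest in Ti and lowest in Ti+Se-Met.

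The assembly chaperones were also mostly higher in Ti. Psmd5, which holds the ATPases for assembly of the cap, was at 34.86 (CTL), 63.39 (Ti) and 52.54 FPKM (Ti+Se-Met), and Psmd9 and Psmd10, which serve the same step, were at 13.90, 21.48 and 17.85 and at 16.34, 22.94 and 21.66. For the core, Psmg3 was at 12.44, 25.32 and 14.46 FPKM. Its ratio of Ti to CTL was 2.04 (1.63 to 2.56) and, sharing the Ti library, that of Ti+Se-Met to Ti was 0.571 (0.448 to 0.727). Its partner Psmg4 was at 12.67, 16.32 and 16.42 FPKM, with an interval of the ratio of Ti to CTL that included 1 (0.917 to 1.80). The other pair, Psmg1 and Psmg2, was at 14.95, 24.50 and 19.41 and at 19.49, 27.46 and 22.34 FPKM.

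Selenomethionine was then examined by setting Ti+Se-Met against Ti. This comparison shares the single Ti library with that of Ti against CTL. An error in that library would move a gene in opposite directions in these comparisons, and its part was not tested. Most proteasome genes were lower with Se-Met, by small amounts. Of the 47 members 41 were lower by some amount, where 61.1% of all genes were, and 12 were lower by a log2 difference of at least 0.32, where 12.2% of all genes were. Past 1.5-fold there were 3, namely Psmf1 and Psmg3 lower (1.29% of all genes) and Psme2b higher (0.844%). The median was -0.23 for the members and -0.06 for all genes.

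Among the 31 constitutive subunits, 28 were lower with Se-Met, and the exceptions were Psma4, Psmd1 and Psmd4. Of the 28, 24 had an interval below 1, where 29.4% of all genes had one. That share is not matched for level, and intervals are narrower for genes as high as these. Psmd13 had the lowest ratio of these at 0.706, followed by Psmb4 at 0.751 and Psmb5 at 0.760, while Psmb7 stood at 0.950. The ATPases had the lowest median of the constitutive groups (-0.34) and the non-ATPase subunits the highest (-0.12).

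Ti+Se-Met against CTL, which shares both of its libraries with the comparisons above, was examined last. Of the 47 members 7 were at least 1.5-fold higher, where 10.4% of all genes were, and 0 were lower past that threshold, where 11.8% of genes were. The 7 were Psmb3, Psmb5, Psmb8, Psmc1, Psmd4, Psmd8 and Psmd13. The median was 0.32 for the members and 0.01 for all genes, and 37 of 47 members were higher by some amount, where 51.0% of all genes were. The 827 genes with short transcripts and a mean of at least 50 FPKM had a median of 0.33, near that of the members. Of these 827, 686 were higher. The 25 constitutive subunits in that class had a median of 0.43, and 22 of them were higher. With equal sums 30 members were higher, where 3981 of the 11137 genes were. The median of the constitutive subunits was 0.34, that of the 19S cap 0.40 and that of the α ring 0.03. The α ring median turned negative with equal sums (-0.17, with 2 of 7 genes higher against 5 of 7 on the deposited scale), with upper-quartile scaling (-0.04) and after the fit on length and GC content (-0.01).

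Other genes of the pathway were examined from lists chosen with earlier results of these data known. Of 9 further parts and assembly factors of the proteasome, 2 were past 1.5-fold higher in Ti (15.5% of all genes) and 0 lower (11.3%), with a median log2 difference of 0.38. Pomp, which helps the core to assemble, was at 135.55 (CTL), 222.29 (Ti) and 167.16 FPKM (Ti+Se-Met), and Adrm1 (Rpn13, a ubiquitin receptor of the cap) was at 43.84, 75.95 and 70.24. Of 16 genes of ubiquitin supply, activation and delivery, 6 were past 1.5-fold higher (15.5% of all genes) and 0 lower (11.3%), with a median of 0.42. Among them were Rps27a (823.07, 1349.04 and 1139.01 FPKM), which encodes ubiquitin joined to a ribosomal protein, Nploc4 (21.98, 36.60 and 33.86), a cofactor of the segregase VCP, Ubqln4 (21.80, 41.17 and 40.05), a shuttle, Zfand2a (12.29, 19.59 and 17.93) and Sqstm1 (299.37, 1023.87 and 666.36), a receptor for autophagy.

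Of 9 genes of proteasome transcription and NRF1 processing, 1 was past 1.5-fold higher (15.5% of all genes) and 1 lower (11.3%), near the shares of all genes, with a median of 0.04. Nfe2l1, which encodes NRF1, was at 118.74, 122.31 and 138.10 FPKM, and Nfe2l2 (NRF2) at 80.52, 130.15 and 115.51. Ngly1, which removes the glycans of NRF1 before its activation, was at 19.62, 11.11 and 11.43 FPKM. The level of Nfe2l1 RNA does not measure the activity of the protein, which depends on its cleavage.

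Of 12 genes of MHC class I antigen processing, 0 were past 1.5-fold higher (15.5% of all genes) and 3 lower (11.3%) in Ti, with a median log2 difference of -0.31. In addition, 11 of 12 had intervals below 1, where 32.2% of all genes had one, a share not matched for level. The 3 past 1.5-fold were H2-T23 (88.76, 46.15 and 48.76 FPKM), Calr (429.33, 273.35 and 373.05) and Pdia3 (321.52, 207.74 and 242.75), of which Calr and Pdia3 are chaperones of the peptide-loading complex. B2m, the light chain of MHC class I, was at 1059.35, 987.02 and 1039.58 FPKM. Of 11 genes on the interferon-γ route to the immunoproteasome, 0 were past 1.5-fold higher (15.5% of all genes) and 2 lower (11.3%), namely Jak2 (19.80, 11.60 and 11.92 FPKM) and Nlrc5 (2.27, 1.18 and 1.18), of which Nlrc5 stood exactly at the threshold. The median of the list was -0.15. Irf1, a transcription factor of this route, was at 41.78, 49.76 and 47.99 FPKM.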

How the data were processed

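The RNA of 3 cultures was sequenced, 1 library for each condition. According to the methods, the authors removed adapters and low-quality reads, aligned with HISAT2 and counted reads with HTSeq; the submitters' processing notes also name SAMtools, StringTie and mm9. How FPKM was made from the counts, and any scaling between libraries, is not given in the sources used here. The deposited table holds FPKM, rounded by the authors to 2 decimals, for 15287 genes, and 0 columns were left unmatched to a sample.

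Groups were taken from the labels. Differences were computed as log2(FPKM + 1) for the 11137 genes with at least 1 FPKM in a library and counted past 1.5-fold; ratios in the text are plain ratios of FPKM. Fragments per gene were estimated from the value of 1 fragment at low levels, with 175 bases subtracted from the length, and gave exact conditional binomial intervals (95%) for ratios of a gene between libraries; intervals of a ratio between ratios are log-normal. They cover counting error only. The depth limits low genes most. Lengths and GC content came from GENCODE M21 (GRCm38), which is not the build in the notes, and promoters from RefSeq (GRCm38.p6). Proteins were not used here. All members are accounted for. Named with levels are Psmb5 to Psmb10, the Psme, Psmf and Psmg genes, the extremes of each other role group and every member past 1.5-fold, and of other lists every gene past 1.5-fold and 6 further genes fixed by name, of which some are not reported here; Psma1, Psma2, Psma5, Psma6 and Psmd14 were named after their values were seen. The members and lists were chosen with earlier results of these data known. Alternatives tried were other pseudocounts, filters, scalings and thresholds. Scripts were tested on simulated data. Python 3.11.15, numpy 2.4.6, pandas 2.3.3, scipy 1.17.1 and matplotlib 3.10.9 were used.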

Additional observations from a re-analysis of the deposited data

How the results depend on the processing

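With 1 library per condition, no library could be left out and no spread between replicates is known. No paired analysis was possible because the labels give 1 library for every condition. The members past 1.5-fold numbered 23 for Ti against CTL. They became 11 with each library scaled to the same sum, 13 with upper-quartile scaling and 37 past a log2 difference of 0.32. The count was 1 at 2-fold. It was 7 after the fit on transcript length and GC content, an alternative chosen after seeing the data. Of the 37, 35 were higher, where 3560 of the 11137 genes were, and 2 lower, where 2563 were. After the fit 5 members were higher, where 1091 of 10919 genes were, and 2 lower, where 1221 were. For Ti+Se-Met against CTL the 7 became 4 with a pseudocount of 5, 1 with equal sums, 2 with upper-quartile scaling, 23 past a log2 difference of 0.32, 0 at 2-fold and 3 after the fit. All of these members were higher in Ti+Se-Met. Of all genes 5.72% were higher with equal sums and 8.3% with upper-quartile scaling. Past 0.32 the share was 24.6%, at 2-fold 2.64% and after the fit 8.15%. For Ti+Se-Met against Ti the 3 became 14 past a log2 difference of 0.32, 0 at 2-fold and 1 with a pseudocount of 5. Of the 14, 12 were lower, where 12.2% of all genes were, and 2 higher, where 5.38% were. At 2-fold 0.162% of all genes were higher and 0.0629% lower. The median of the members for Ti against CTL (0.48) became 0.25 with equal sums, 0.35 with upper-quartile scaling and 0.34 after the fit, that for Ti+Se-Met against CTL (0.32) became 0.12 with equal sums and 0.19 after the fit, and that for Ti+Se-Met against Ti (-0.23) became -0.13 after the fit. The difference between immunoproteasome and constitutive catalytic genes (-0.66, -0.44 and 0.22) kept its direction and stayed within its counting error under every alternative run. None of these 9 results changed direction. Of single members, 5 of 47 changed direction for Ti against CTL under some scaling or the fit (Psma1, Psmb10, Psmd1, Psme4 and Psmg4), while with Se-Met 10 did so against CTL and 6 against Ti. The immunoproteasome median changed direction for Ti against CTL (0.28 to -0.09 after the fit), and with Se-Met against Ti alone (-0.01 to between 0.01 and 0.07). Beyond what follows from a threshold or a scaling factor, the cause of these moves was not tested. Depth limits Psme2b, Psmg4 and Psmb8 most.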
